A study of Mus musculus with 41 samples.

Results

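The comparison described here set haploid embryonic stem cell libraries made and kept with a Src inhibitor against libraries of a line kept with a MEK inhibitor. Members were all wild-type RNA-seq libraries of the TSa2i lines and of the line 2i-14 while it was in 2i/L, 8 of the 41 samples of the series and 8 of its 13 RNA-seq libraries. The cells were androgenetic haploid embryonic stem cells (AG-haESCs), mouse stem cells that carry only the chromosomes of 1 sperm and come from sperm-injected oocytes without a nucleus. The first group held 5 libraries: TSa2i-14 at passages 22, 47 and 54, and TSa2i-C57 at passages 9 and 58. Both lines were derived in serum with LIF, the GSK3 inhibitor CHIR99021 at 3 µM and the Src inhibitor CGP77675 at 1.5 µM, and were then kept in serum-free SF/a2i/L with the same inhibitors. The control group held 3 libraries of 2i-14 at passages 18, 39 and 50, kept in 2i/L with 15% serum, LIF at 1000 units/ml, CHIR99021 at 3 µM and the MEK inhibitor PD0325901 at 1 µM. All 8 libraries shared LIF, CHIR99021, the C57BL/6 strain label, fibroblast feeder cells and sorting of haploid cells before RNA was taken. TSa2i-14 is described by the study as carrying an actin-EGFP transgene, and no transgene is stated for 2i-14.

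Each group is limited as a model. The control is a single line, the passages of a line are not separate derivations, and no line was sequenced in both media among these 8 libraries. Inhibitor, serum and line therefore cannot be told apart, and p-values measure the spread between these libraries only. In addition, 4 libraries of H19-DMR- and IG-DMR-deleted lines give values beside the results: 2i-O48 and 2i-O48-TKO (which also lacks H19), each in 2i/L and 5 passages after a switch to SF/a2i/L. They share no library with the comparison, hold 1 library per state, and carry no test. Both lines carry the DMR deletions and are related, so a change seen in both is not an independent repeat.

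Both media hold mouse embryonic stem cells in the naive state. LIF acts through STAT3, and inhibition of GSK3 stabilises β-catenin, which relieves the repression of pluripotency genes by Tcf7l1. MEK inhibition blocks the ERK signal of fibroblast growth factors, and Src family kinases act next to integrins and receptors upstream of several pathways, ERK among them. Medium without serum also changes the supply of amino acids, iron, lipids and hormones, to which cells respond through the integrated stress response, the lysosome and nuclear receptors.

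FPKM, a fragment number scaled to transcript length and to the mapped total, was compared on the log2(FPKM + 1) scale with limma, and a gene is called where its Benjamini-Hochberg adjusted p was under 0.05. Of 10387 genes tested, 786 (7.57%) were called. The called genes were 594 higher (5.72%) and 192 lower (1.85%) in the TSa2i/L lines, and the groups did not overlap for 1715 genes (16.5%), called or not. Counts given below for gene lists stand beside these shares of all tested genes. The median change of all tested genes was 0.07, and 75.6% of called genes were higher as deposited. That split depended on scaling: after centring each library on its median the share was 56.2%, with 359 higher, 280 lower and a median change of -0.05. All changes below are on the log2(FPKM + 1) scale, where a change of a gene near 1 FPKM is smaller than its ratio of FPKM, and names of gene groups are those of lists chosen with earlier results of these data known.

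Stem cell markers were abundant in both groups. Pou5f1, the gene of OCT4, was at 163, 134 and 143 FPKM in TSa2i-14, at 77.1 and 147 in TSa2i-C57 and at 140.0, 99.2 and 60.4 in 2i-14. Nanog, Sox2, Zfp42, Esrrb and Dppa5a were above 14 FPKM in every library and were not called. Depth implied by the steps of low FPKM values was 12700000 to 19200000 fragments, at which 3 fragments on a transcript of 1 kb are 0.156 to 0.236 FPKM. Feeder RNA was uneven. The mean log2(FPKM + 1) of the 10 tested members of a list of 20 fibroblast markers lay between 0.22 and 0.90 in 5 libraries. TSa2i-14 p54 had 3.34, 2i-14 p39 had 2.75 and TSa2i-C57 p58 had 2.11. Without those 3 libraries 137 of 9732 genes (1.41%) were called, and with the mean of the whole fibroblast list as a covariate 784 of 10387 (7.55%). Leaving out those 3 libraries also makes both groups smaller. Whether calls lost that way, here and below, follow feeder RNA or group size was not tested. In bulk RNA, fewer cells of a type and less RNA per cell cannot be told apart.

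**Figure D1:**
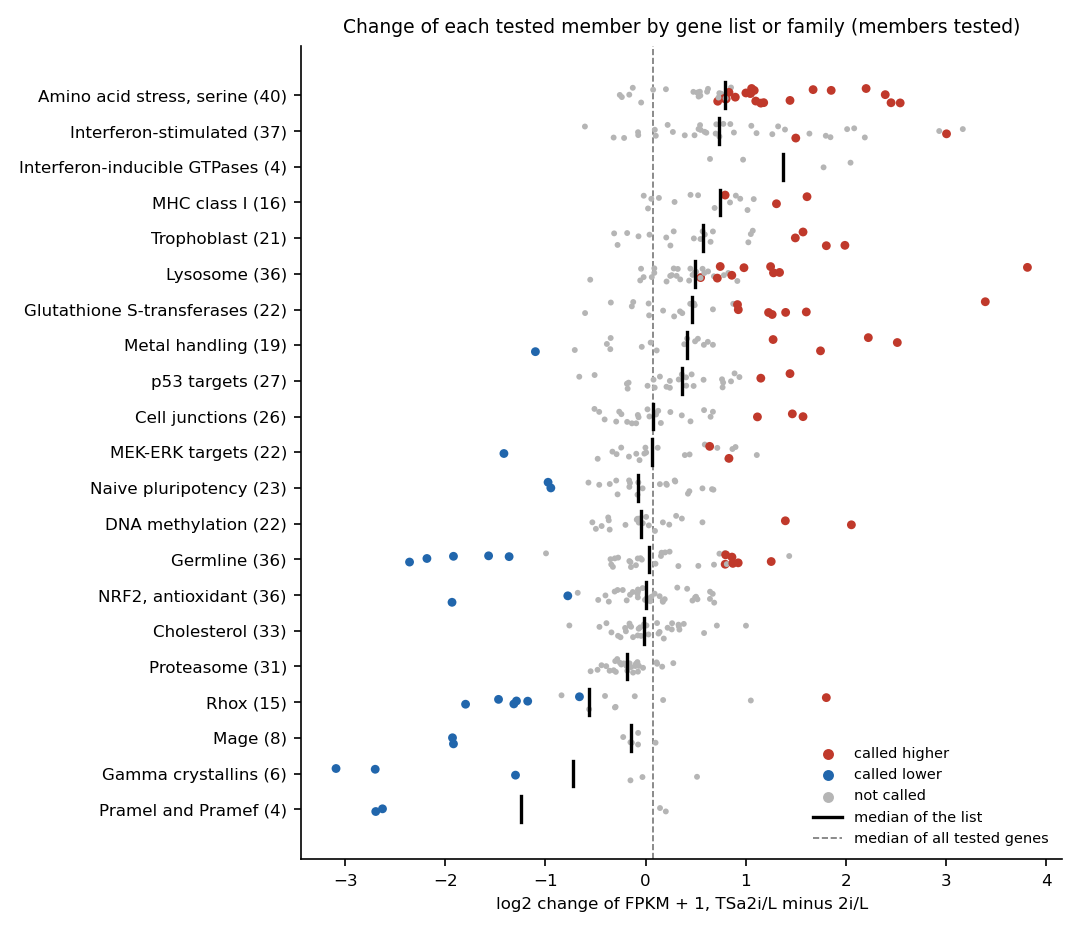
Change of each tested member of each gene list between TSa2i/L and 2i-14 libraries, as the difference in mean log2(FPKM + 1), with red points called higher, blue points called lower, grey points not called, a black bar at the list median and a dashed line at the median of all tested genes (0.07). The amino acid stress list has 20 red points and no blue one, with its median at 0.79.

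Promoter stretches of genes on which the first results turn are shown here, from RefSeq on build GRCm38.p6, 5′ to 3′ on the strand of the gene, with capitals on the letters that match a motif on either strand. The first motif is the C/EBP-ATF response element bound by ATF4 with C/EBP partners, searched as TGATGNAAN, which stood in 4.50% of all 27025 promoter windows and in 2.56% of the 8385 windows of tested genes. Windows ran from 250 bases before to 50 bases after the start. The stretches of Nupr1 (chr7:126625513-126625641, minus strand), Atf3 (chr1:191183376-191183504, minus strand), Chac1 (chr2:119350992-119351116, plus strand) and Asns (chr6:7693210-7693292, minus strand) follow, Asns because its value moved differently from the other three genes.
Nupr1: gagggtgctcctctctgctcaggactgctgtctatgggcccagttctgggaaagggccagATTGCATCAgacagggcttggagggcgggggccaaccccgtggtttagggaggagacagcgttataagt
Atf3: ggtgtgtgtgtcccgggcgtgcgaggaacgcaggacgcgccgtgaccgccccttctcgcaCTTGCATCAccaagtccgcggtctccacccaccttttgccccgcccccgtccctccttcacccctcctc
Chac1: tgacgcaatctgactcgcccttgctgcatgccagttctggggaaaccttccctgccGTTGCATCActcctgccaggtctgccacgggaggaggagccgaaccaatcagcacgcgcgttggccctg
Asns: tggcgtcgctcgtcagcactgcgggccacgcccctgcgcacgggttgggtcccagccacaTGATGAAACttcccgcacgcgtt
Of the 40 tested members of the amino acid stress list 32 had a promoter window, and 11 of these 32 held the motif. A match is a run of letters and not evidence of binding.

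The second motif is the interferon-stimulated response element bound by IRF factors, searched as GAAA repeated after any 2 bases and found in 3.99% of all windows. Overlapping matches are capitalised as 1 run. Bst2 (chr8:71537527-71537662, minus strand), Irgm1 (chr11:48871421-48871510, minus strand) and Igtp (chr11:58199462-58199555, plus strand) are shown because the first was called in the comparison and the others split the TSa2i/L libraries.
Bst2: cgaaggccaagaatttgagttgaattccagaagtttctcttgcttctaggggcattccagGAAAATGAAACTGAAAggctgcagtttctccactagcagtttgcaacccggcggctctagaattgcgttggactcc
Irgm1: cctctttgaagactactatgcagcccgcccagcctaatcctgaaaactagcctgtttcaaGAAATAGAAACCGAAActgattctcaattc
Igtp: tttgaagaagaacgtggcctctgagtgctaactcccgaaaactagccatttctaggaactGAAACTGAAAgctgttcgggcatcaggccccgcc
All 4 tested interferon-inducible GTPases held this motif. Windows were matched for 28 of the 37 tested members of the interferon list, too few to give a share for it.

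Genes of the amino acid stress response and serine synthesis held the most called members of the 46 lists. Of 44 listed, 40 were tested, 20 rose (50% called, against 7.57% of all tested genes) and none fell. Of the tested members 35 were above 0, with a list median of 0.79 against 0.07 for all genes. This response, in which ATF4 is translated when amino acids run short or the endoplasmic reticulum is stressed, raises transporters, aminotransferases, tRNA synthetases and stress factors. The list mean was 5.29 to 5.67 in the TSa2i/L libraries and 4.37 to 4.90 in 2i-14, without overlap. Groups did not overlap for 22 of its 40 tested members, against 16.5% of all tested genes.

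Among the transcription factors, Nupr1, a small stress-induced chromatin protein (chr7:133766763-133770524, minus strand, mm9), was at 614, 894 and 754 FPKM in TSa2i-14, 1364 and 786 in TSa2i-C57 and 188, 198 and 99.3 in 2i-14. Every TSa2i/L library was above every control, with a change of 2.45 ± 0.27 (SE, adjusted p = 0.000602, limma). Atf3, which follows ATF4 in the pathway, was at 8.79, 11.8 and 15.1 FPKM in TSa2i-14, 6.54 and 23.1 in TSa2i-C57 and 2.25, 1.78 and 0.222 in 2i-14 (2.54 ± 0.40, adjusted p = 0.00398, limma). The passage 50 control was the lowest of the 8 by a wide margin. Atf4 itself was at 194, 231 and 255 FPKM in TSa2i-14, 161 and 314 in TSa2i-C57 and 128, 128 and 71.3 in 2i-14 (1.09 ± 0.25, adjusted p = 0.0238, limma). Atf4 was named after its values were seen, and its call was lost without the 3 fibroblast-rich libraries. Ddit3, which encodes the stress factor CHOP, was at 289.9 FPKM in TSa2i-C57 p9, 61.9 to 134 in the other 4 TSa2i/L libraries and 26.0 to 28.3 in 2i-14 (1.85 ± 0.44, adjusted p = 0.0288, limma), so a single library stood far above the rest of its group and the controls were below all 5. The Ddit3 call was lost under median centring and without TSa2i-14 p47 or any 1 of the controls.

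Downstream genes moved in the same direction. Trib3, a pseudokinase that feeds back on ATF4, was at 42.8, 37.8 and 50.3 FPKM in TSa2i-14, 23.8 and 75.6 in TSa2i-C57 and 12.1, 8.09 and 6.33 in 2i-14 (2.2 ± 0.32, adjusted p = 0.00287, limma). Chac1, which degrades glutathione, was at 34.8, 25.4 and 63.3 FPKM in TSa2i-14, 15.4 and 95.7 in TSa2i-C57 and 7.41, 6.99 and 5.34 in 2i-14 (2.39 ± 0.47, adjusted p = 0.0126, limma). For both genes TSa2i-C57 held the lowest TSa2i/L library at passage 9 and the highest at passage 58. The mitochondrial alanine aminotransferase Gpt2 was at 31.1, 34.3 and 32.2 FPKM in TSa2i-14, 20.8 and 38.2 in TSa2i-C57 and 12.3, 8.14 and 7.11 in 2i-14 (1.67 ± 0.23, adjusted p = 0.00206, limma). The stress hormone genes Gdf15 (1.44, adjusted p = 0.00809, limma) and Fgf21 (1.18, adjusted p = 0.0359, limma) also rose, Fgf21 from at most 0.350 FPKM in the controls. Ddit4, an inhibitor of mTORC1, rose by 1.15 ± 0.20 (adjusted p = 0.00657, limma).

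A further 5 enzymes and carriers of the list were named after their values were seen, and 3 of them were called. Psph, the last enzyme of serine synthesis, was at 167, 186 and 179.7 FPKM in TSa2i-14, 179.7 and 158 in TSa2i-C57 and 83.7, 80.5 and 88.4 in 2i-14 (1.04 ± 0.13, adjusted p = 0.000921, limma). Slc3a2, the shared heavy chain of several amino acid exchangers, was at 248, 237 and 273 FPKM in TSa2i-14, 297 and 297 in TSa2i-C57 and 132, 126 and 117 in 2i-14 (1.10 ± 0.13, adjusted p = 0.00088, limma). Cth, which makes cysteine from cystathionine, rose by 1.06 ± 0.15 (adjusted p = 0.00211, limma). Not every target of the pathway moved. Asns, asparagine synthetase, was at 1483, 1162 and 1107 FPKM in TSa2i-14, 1149 and 1144 in TSa2i-C57 and 1268, 1037 and 1448 in 2i-14, a change of -0.04 ± 0.14 (adjusted p = 0.892, limma). Psat1 stood at 227 to 451 FPKM against 185 to 264 (0.52, adjusted p = 0.159, limma).

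In the DMR-deleted lines the members divided. After the switch Nupr1 went from 151 to 1268 FPKM in 2i-O48 and from 277 to 1672 in 2i-O48-TKO, and Psph from 74.9 to 231 and from 97.2 to 202. Atf4 stayed at 126 FPKM in 2i-O48 and went from 90.9 to 159 in 2i-O48-TKO, Trib3 went from 15.1 to 12.0 and from 9.46 to 25.8, and Asns went down in both. Of the 20 called members 12 were higher after the switch in both lines, and the list medians of the changes were -0.00 and 0.23. Without the 3 fibroblast-rich libraries 6 of 39 members were called, and with the fibroblast covariate 19 were.

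**Figure D2:**
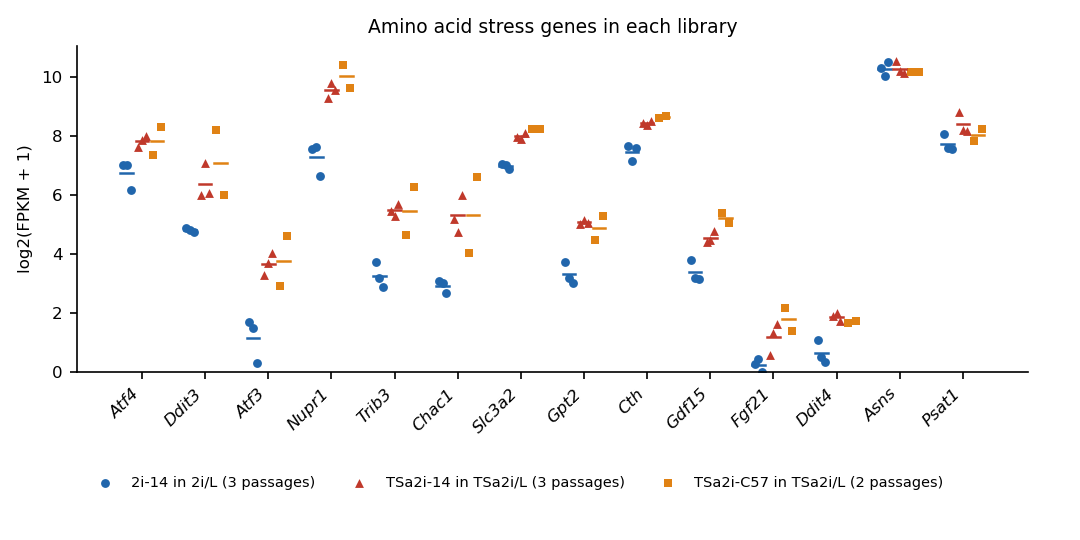
log2(FPKM + 1) of 14 genes of the amino acid stress response in the 8 libraries, 1 point per library (blue circles 2i-14, red triangles TSa2i-14, orange squares TSa2i-C57) with bars at the mean of each line. Nupr1, Atf3, Trib3 and Chac1 separate the 5 TSa2i/L libraries from the 3 controls, whereas Asns (1107 to 1483 against 1037 to 1448 FPKM) does not.

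Lysosomal genes formed the second broadly raised group, with 9 of 36 tested members higher (25% called), none lower, 32 above 0 and a median of 0.50. Their mean level was 5.02 to 5.42 in TSa2i/L and 4.49 to 4.82 in 2i-14. The lysosome degrades proteins, lipids and sugars with acid hydrolases, and its genes are induced when nutrients or mTORC1 activity fall. Napsa, an aspartic protease (chr7:51827802-51842232, plus strand, mm9), was at 7.78, 45.3 and 18.4 FPKM in TSa2i-14, 8.92 and 17.7 in TSa2i-C57 and 0.730, 0 and 0.0393 in 2i-14 (3.81 ± 0.46, adjusted p = 0.000964, limma). Ctsz, a cysteine cathepsin, was at 116, 146 and 131 FPKM in TSa2i-14, 135 and 158 in TSa2i-C57 and 43.3, 55.2 and 63.8 in 2i-14 (1.34 ± 0.16, adjusted p = 0.00105, limma). Hexa, a subunit of β-hexosaminidase, was at 89.8, 164 and 109 FPKM in TSa2i-14, 145 and 103 in TSa2i-C57 and 51.7, 39.1 and 59.9 in 2i-14 (1.25 ± 0.22, adjusted p = 0.00748, limma). The groups were apart for all 3 genes.

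Of the 9 tested cathepsin family genes 4 rose, Ctsc by 0.98 (adjusted p = 0.00675, limma) and Ctsd by 0.72 (adjusted p = 0.0458, limma) among them, with a family median of 0.55. Mcoln1, the lysosomal calcium channel, rose by 0.86 ± 0.20 (adjusted p = 0.0241, limma). Cd68, also a macrophage marker, rose by 1.28 ± 0.34 (adjusted p = 0.0452, limma), but 2i-14 p18 at 59.5 FPKM lay inside the TSa2i/L range of 57.7 to 129. The lysosomal rise was not seen as a group in the DMR-deleted lines, where the list medians after the switch were -0.12 and -0.12 and 20 of 36 members were lower in both. Ctsz went from 42.4 to 102 and from 57.4 to 117 FPKM there, whereas Hexa went from 44.0 to 26.3 and from 67.2 to 38.8. Without the 3 fibroblast-rich libraries 2 of 36 members were called.

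Some glutathione S-transferases, which conjugate glutathione to electrophiles, rose. Of 22 tested transferases 7 rose and none fell (31.8% called), with a median of 0.46. The list mean was 4.43 to 4.97 in TSa2i/L against 3.88 to 4.33 in 2i-14. Gstt2, a theta-class enzyme (chr10:75294590-75297626, minus strand, mm9), was at 24.5, 86.7 and 47.9 FPKM in TSa2i-14, 78.9 and 61.3 in TSa2i-C57 and 5.82, 3.15 and 4.33 in 2i-14 (3.39 ± 0.36, adjusted p = 0.000464, limma). Gstt1 rose by 1.6, Gstt3 by 1.40 and Gstm7 by 1.23. Gstz1, an enzyme of tyrosine breakdown, was at 25.6 to 32.6 FPKM against 11.4 to 12.9 (1.26 ± 0.16, adjusted p = 0.00114, limma). After the switch Gstt2 went from 3.21 to 36.3 FPKM in 2i-O48 and from 7.60 to 52.4 in 2i-O48-TKO. Leaving out the fibroblast-rich libraries left 3 of 19 transferases called.

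A separate list of NRF2, the main activator of antioxidant genes, and other antioxidant genes had none of 36 tested members higher and 2 lower, close to the share over all genes, with a median of 0.00. Prdx6, a peroxidase that reduces phospholipid hydroperoxides, was at 128, 117 and 178 FPKM in TSa2i-14, 151 and 176 in TSa2i-C57 and 654, 455 and 614 in 2i-14 (-1.93 ± 0.18, adjusted p = 0.000365, limma). Gss, glutathione synthetase, was at 23.98, 28.3 and 28.3 FPKM in TSa2i-14, 22.6 and 36.4 in TSa2i-C57 and 46.4, 43.1 and 54.9 in 2i-14 (-0.78 ± 0.18, adjusted p = 0.0281, limma). Both were lower in every TSa2i/L library than in any control. In the DMR-deleted lines Prdx6 went from 572 to 133 and from 518 to 91.8 FPKM, and Gss from 40.7 to 10.2 and from 51.9 to 10.8. None of 18 tested selenoprotein genes was called, with a median of 0.17.

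Metal-handling genes changed on both the storage and the uptake side. Of 19 tested, 4 rose and 1 fell, with a median of 0.42. The metallothionein Mt1, which binds zinc and copper, was at 5918, 11049 and 8457 FPKM in TSa2i-14, 6794 and 9135 in TSa2i-C57 and 3078, 4243 and 1065 in 2i-14 (1.75 ± 0.36, adjusted p = 0.0165, limma). Mt2 rose by 2.51 ± 0.49 (adjusted p = 0.0121, limma), with 341 FPKM in 2i-14 p50 against 1411 and 2577 in the other controls. The metallothioneins did not move one way in the DMR-deleted lines, where Mt1 went from 2798 to 1558 in 2i-O48 and from 1777 to 10868 in 2i-O48-TKO. Trf, the iron carrier transferrin, was at 7.35, 12.1 and 9.80 FPKM in TSa2i-14, 10.2 and 7.40 in TSa2i-C57 and 1.40, 1.44 and 0.790 in 2i-14 (2.22 ± 0.21, adjusted p = 0.000365, limma). Tfrc, the transferrin receptor, was at 30.8, 17.4 and 24.9 FPKM in TSa2i-14, 16.5 and 24.9 in TSa2i-C57 and 56.5, 49.9 and 41.7 in 2i-14 (-1.10 ± 0.22, adjusted p = 0.0139, limma). Heph, a copper-dependent iron oxidase, rose by 1.27 ± 0.22 (adjusted p = 0.00748, limma) from at most 0.118 FPKM in the controls.

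Of 15 tested genes in a mixed list of glucocorticoid, progesterone and thyroid hormone targets 5 rose and none fell, with a median of 0.44, but Mt1, Mt2 and Ddit4 also stand in the lists above. The remaining pair was Tsc22d3 and Cebpb. Tsc22d3, which encodes the glucocorticoid-induced leucine zipper, was at 11.5, 10.0 and 11.1 FPKM in TSa2i-14, 17.9 and 12.6 in TSa2i-C57 and 3.03, 2.81 and 4.19 in 2i-14 (1.64 ± 0.21, adjusted p = 0.00154, limma). Cebpb, a C/EBP transcription factor, was at 6.45 to 11.8 FPKM against 1.6 to 3.19 (1.64 ± 0.24, adjusted p = 0.00287, limma). Tsc22d3 went from 3.66 to 8.09 and from 9.80 to 21.2 FPKM after the switch of the DMR-deleted lines.

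**Figure D3:**
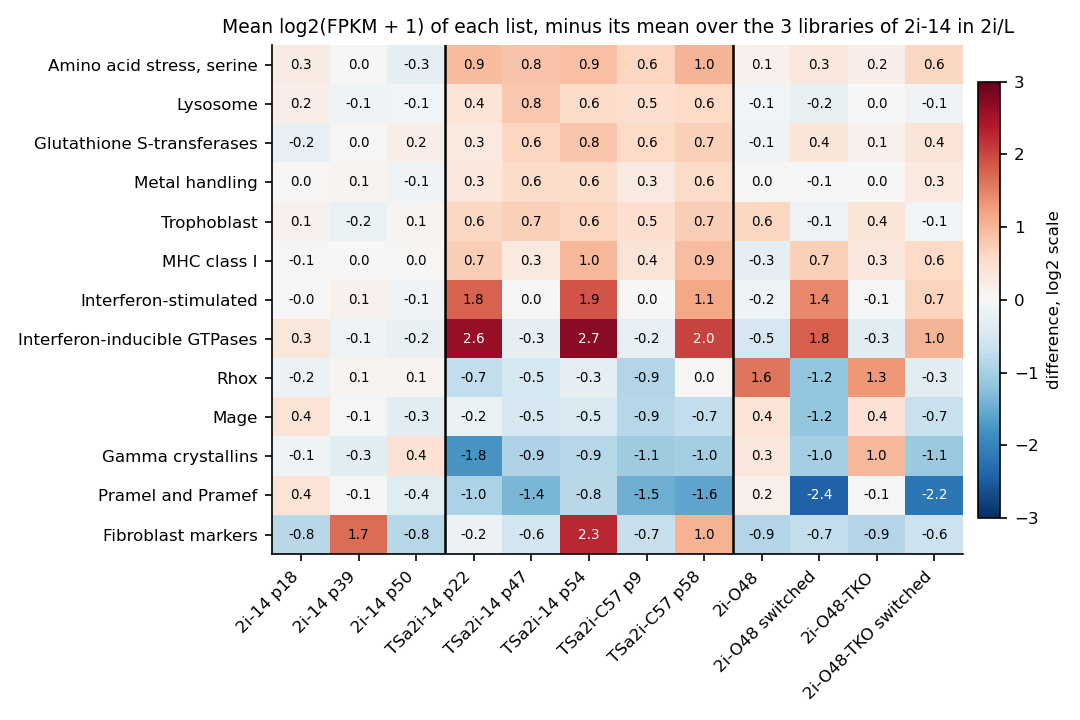
Mean log2(FPKM + 1) of the tested members of each gene list in 12 libraries, as the difference from its mean over the 3 2i-14 libraries, with the 4 DMR-deleted libraries beside the 8 compared ones. The interferon lists are high in TSa2i-14 p22 and p54 and TSa2i-C57 p58 and near the controls in TSa2i-14 p47 and TSa2i-C57 p9.

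Interferon-stimulated genes separated the TSa2i/L libraries from each other more than from the controls. Type I interferon is a secreted antiviral signal that induces effectors against viruses and antigen presentation. Of 37 tested members 2 rose and none fell, so that 5.41% were called, below the 7.57% of all tested genes. The list median was 0.74, with 32 above 0. The list mean was 4.28, 2.56 and 4.41 in TSa2i-14 at passages 22, 47 and 54, 2.53 and 3.66 in TSa2i-C57 at passages 9 and 58, and 2.5, 2.63 and 2.41 in 2i-14. Of the 5 TSa2i/L libraries 3 were above every control by a wide margin and the remaining pair lay inside the range of the controls. The split followed neither line nor order of passage.

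Bst2, which encodes tetherin (chr8:74058163-74061336, minus strand, mm9), was at 523, 149 and 605 FPKM in TSa2i-14, 187 and 301 in TSa2i-C57 and 37.2, 38.2 and 36.1 in 2i-14 (3.01 ± 0.40, adjusted p = 0.00176, limma). It was high in all 5 TSa2i/L libraries, including the pair with low values for the list. Oas1b, of the 2′-5′ oligoadenylate synthetases, was at 5.64, 1.15 and 6.06 FPKM in TSa2i-14, 1.13 and 1.77 in TSa2i-C57 and 0.302, 0.261 and 0.242 in 2i-14 (1.50 ± 0.40, adjusted p = 0.0458, limma), and its call was lost under median centring and quantile normalization and without the fibroblast-rich libraries. Usp18, which removes ISG15 from proteins and was named after its values were seen, was at 44.8, 1.16 and 50.4 FPKM in TSa2i-14, 0.566 and 13.8 in TSa2i-C57 and 0, 1.40 and 0.0316 in 2i-14 (2.93, adjusted p = 0.125, limma). Its high libraries were those with a high list mean. Ifi27, likewise named after its values were seen, was at 279.6, 4.29 and 173 FPKM in TSa2i-14, 6.27 and 123 in TSa2i-C57 and 1.43, 27.3 and 1.10 in 2i-14 (3.17, adjusted p = 0.185, limma).

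The interferon-inducible GTPases, which act on the vacuoles of intracellular pathogens, gave the same division, with 4 of 14 listed genes tested, none called and a median of 1.38. The filter of at least 1 FPKM in 3 libraries could be met by the 3 interferon-high libraries alone. Medians and counts above 0 of this list and of the interferon list may therefore rest in part on genes admitted that way. Irgm1 was at 90.8, 0.401 and 79.2 FPKM in TSa2i-14, 0.397 and 37.1 in TSa2i-C57 and 4.82, 1.97 and 1.28 in 2i-14 (2.05, adjusted p = 0.416, limma). TSa2i-14 p47 and TSa2i-C57 p9 were below every control for this gene. Igtp was at 19.08, 1.54 and 18.5 FPKM in TSa2i-14, 2.30 and 10.7 in TSa2i-C57 and 2.92, 0.733 and 1.05 in 2i-14 (1.78, adjusted p = 0.133, limma). Irf7, a regulator of the response named after its values were seen, was high in the same 3 libraries and did not pass the test (1.64, adjusted p = 0.174, limma).

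The fibroblast marker mean moved in part with this division. TSa2i-14 p54 (3.34) and TSa2i-C57 p58 (2.11) had high values of both, and TSa2i-14 p47 (0.49) and TSa2i-C57 p9 (0.37) had low values of both. The interferon-high library TSa2i-14 p22 had a fibroblast mean of 0.90, and 2i-14 p39, with an interferon mean of 2.63, had one of 2.75. In the DMR-deleted lines the interferon mean went from 2.35 to 3.95 in 2i-O48 and from 2.45 to 3.18 in 2i-O48-TKO, with fibroblast means of 0.33 and 0.43 after the switch. There Irgm1 went from 0.396 to 41.0 and from 0.616 to 7.51 FPKM, and 27 of 37 members were higher in both lines. None of 14 tested genes of nucleic acid sensing was called (median 0.04).

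**Figure D4:**
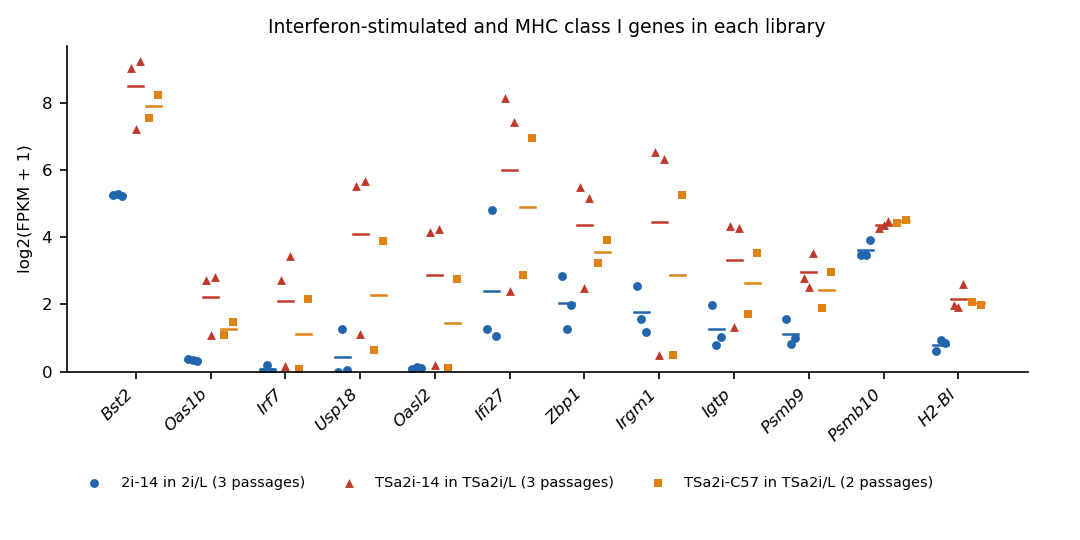
log2(FPKM + 1) of 12 interferon and antigen presentation genes in the 8 libraries, 1 point per library (blue circles 2i-14, red triangles TSa2i-14, orange squares TSa2i-C57) with bars at the mean of each line. Usp18, Oasl2, Irf7 and Irgm1 each show 3 high TSa2i/L points and a pair near or below the controls, whereas Bst2 (149 to 605 against 36.1 to 38.2 FPKM) has all 5 above.

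The mean of the MHC class I antigen presentation list was above the controls in all 5 libraries. Of 29 listed, 16 were tested and 3 rose, with a list mean of 3.94 to 4.64 against 3.59 to 3.69 and a median of 0.74. The 3 interferon-high libraries had list means of 4.40, 4.57 and 4.64, and the remaining pair 3.94 and 4.04. The immunoproteasome subunit Psmb9 was at 5.93, 4.77 and 10.5 FPKM in TSa2i-14, 2.69 and 6.76 in TSa2i-C57 and 1.93, 0.777 and 0.994 in 2i-14 (1.61 ± 0.32, adjusted p = 0.0143, limma). Psmb10, another immunoproteasome subunit, was at 18.3 to 21.97 FPKM against 10.1 to 14 (0.79 ± 0.17, adjusted p = 0.0183, limma). H2-Bl, annotated as a polymorphic pseudogene and close in sequence to other class I genes, rose by 1.31 ± 0.20 (adjusted p = 0.00342, limma), and reads shared with those genes make its value uncertain. Psmb10 went from 15.4 to 41.1 and from 18.4 to 41.3 FPKM after the switch of the DMR-deleted lines. Without the 3 fibroblast-rich libraries 1 of 15 members, H2-Bl, was called.

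A few epithelial and trophoblast-associated genes rose, while the trophoblast regulators Cdx2 and Gata3 did not. Of 31 listed trophoblast genes 21 were tested, 4 rose and none fell (median 0.57), and the list mean was 3.49 to 3.73 against 2.78 to 3.13. Krt7, a simple epithelial keratin, was at 5.33, 8.20 and 8.69 FPKM in TSa2i-14, 6.97 and 6.88 in TSa2i-C57 and 0.669, 1.38 and 1.15 in 2i-14 (1.99 ± 0.20, adjusted p = 0.000398, limma). Cldn4, a tight junction claudin, was at 72.2, 71.2 and 64.0 FPKM in TSa2i-14, 123 and 60.03 in TSa2i-C57 and 19.9, 16.1 and 46.6 in 2i-14 (1.57 ± 0.33, adjusted p = 0.0162, limma). The homeobox gene Rhox6, expressed in placenta and germ cells (chrX:35180087-35183034, plus strand, mm9), was at 69.96, 68.6 and 66.7 FPKM in TSa2i-14, 34.0 and 68.3 in TSa2i-C57 and 5.86, 26.3 and 26.7 in 2i-14 (1.80 ± 0.43, adjusted p = 0.0281, limma). Cdx2, the trophoblast master regulator, was listed at 0 in all 5 TSa2i/L libraries, and Gata3 was at 0.215 to 1.59 FPKM against 1.06 to 1.23. The calls of Cldn4 and Rhox6 were lost without the fibroblast-rich libraries, where 1 of 19 list members was called.

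All 8 tested keratins were above 0 with a median of 0.63, and Krt7 and Krt42 (1.40 ± 0.26, adjusted p = 0.00972, limma) rose. Pkp3, a desmosome protein, rose by 1.12 ± 0.18 (adjusted p = 0.00537, limma), and Cldn7 rose by 1.47 ± 0.37 (adjusted p = 0.0374, limma) although 2i-14 p50 at 20.5 FPKM lay above the lowest TSa2i/L library at 18.7. Cell junction genes as a list had 3 of 26 members higher and a median of 0.07 that turned to -0.05 under median centring. In the DMR-deleted lines the trophoblast list was lower after the switch, with medians of -0.55 and -0.30, and Rhox6 went from 200.1 to 41.5 and from 55.5 to 51.8 FPKM. The trophoblast list mean there went from 3.63 to 2.84 in 2i-O48 and from 3.35 to 2.92 in 2i-O48-TKO. In 2i/L both lines were thus above every 2i-14 library, and 2i-O48 lay inside the TSa2i/L range.

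Several of the largest rises lay outside these groups. Calca, which encodes calcitonin and CGRP, was at 106, 83.2 and 64.9 FPKM in TSa2i-14, 126 and 108 in TSa2i-C57 and 17.04, 9.56 and 8.03 in 2i-14 (3.00 ± 0.26, adjusted p = 0.000365, limma). Calb2, the calcium-binding protein calretinin, was at 8.17, 17.1 and 10.7 FPKM in TSa2i-14, 7.83 and 18.4 in TSa2i-C57 and 0.234, 0.909 and 0.533 in 2i-14 (3.05 ± 0.29, adjusted p = 0.000365, limma). Calca also went from 7.92 to 215 and from 12.4 to 228 FPKM after the switch of the DMR-deleted lines. Apoe, a lipid carrier that stands in the primitive endoderm list, was at 2980.5, 4661 and 3624 FPKM in TSa2i-14, 5134 and 3633 in TSa2i-C57 and 1764, 1356 and 1055 in 2i-14 (1.53 ± 0.19, adjusted p = 0.00127, limma). S100a1, a calcium-binding protein, rose by 2.37 ± 0.50 (adjusted p = 0.0175, limma), and 2 of 10 tested S100 genes were called. Slc16a9, a monocarboxylate carrier, was at 5.27 to 11.2 FPKM against 0.607 to 1.24 (2.19 ± 0.24, adjusted p = 0.000563, limma) but at 1.04 and 0.753 FPKM in 2i-O48 before and after the switch. Solute carriers as a family had 15 of 171 tested genes higher and 3 lower (10.5% called, median 0.14).

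Among the falls were members of clustered gene families that are usually silent outside lens, germ line or early embryo. Of 6 tested γ-crystallins, structural proteins of the lens, 3 fell and none rose, with a median of -0.73. Crygd (chr1:65108446-65110026, minus strand, mm9) was at 0, 0.628 and 1.41 FPKM in TSa2i-14, 0 and 0 in TSa2i-C57 and 12.4, 9.07 and 9.43 in 2i-14 (-3.09 ± 0.30, adjusted p = 0.000365, limma). Crygc, its neighbour at chr1:65118099-65120263, was at 0, 0.639 and 0.322 FPKM in TSa2i-14, 0.205 and 0.172 in TSa2i-C57 and 4.82, 4.14 and 16.9 in 2i-14 (-2.70 ± 0.36, adjusted p = 0.00167, limma). Cryge, at chr1:65095128-65097723, changed by -1.30 (adjusted p = 0.027, limma). Crygd went from 11.5 to 0 and from 26.3 to 0.433 FPKM after the switch of the DMR-deleted lines. When the fibroblast-rich libraries were left out, 3 members passed the filter on low FPKM, Crygd and Crygc not among them, and none was called. With 2i-14 p18 and p50 as the only controls left, that filter of 3 libraries could not be met without a TSa2i/L library. Genes silent in TSa2i/L could therefore not be tested there, and the count says nothing about their calls.

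Of 4 tested Pramel and Pramef genes, a leucine-rich repeat family of oocyte and naive stem cells, 2 fell (median -1.24). Pramel7 (chr2:87329244-87337250, minus strand, mm9) was at 3.36, 1.77 and 4.61 FPKM in TSa2i-14, 1.25 and 0.454 in TSa2i-C57 and 34.2, 14 and 12.1 in 2i-14 (-2.69 ± 0.44, adjusted p = 0.00504, limma). Its neighbour Pramel6 was at 5.85, 2.92 and 6.05 FPKM in TSa2i-14, 2.90 and 1.56 in TSa2i-C57 and 53.3, 29.6 and 12.2 in 2i-14 (-2.63 ± 0.44, adjusted p = 0.00599, limma). Both remained called without the fibroblast-rich libraries, and Pramel6 went from 38.3 to 0.308 and from 30.9 to 1.35 FPKM in the DMR-deleted lines. Obox6, a homeobox gene of oocyte and early embryo, was at 19.96 to 36.2 FPKM against 95.6 to 137 (-2.02 ± 0.20, adjusted p = 0.000398, limma).

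On the X chromosome, 6 of 15 tested Rhox homeobox genes fell and 1, Rhox6, rose (median -0.56). Rhox13 was at 0.512, 0.744 and 1.90 FPKM in TSa2i-14, 1.66 and 1.84 in TSa2i-C57 and 3.13, 7.11 and 13.3 in 2i-14 (-1.80 ± 0.37, adjusted p = 0.0153, limma). Rhox10 was at 0.133 to 0.813 FPKM against 2.03 to 4.66 (-1.47 ± 0.24, adjusted p = 0.0053, limma). Rhox2a (with overlapping groups), Rhox2b and Rhox2e fell by 1.29, 1.18 and 1.32, but these are near-identical copies among which reads can be split. In the switched state all 15 members were lower in both DMR-deleted lines, with medians of -2.71 and -1.44. With the fibroblast-rich libraries left out, 8 passed the filter, which again could not be met by controls alone, and 1, Rhox2a, was called. Of 8 tested Mage genes 2 fell. Magea5 was at 1.10, 1.28 and 0.568 FPKM in TSa2i-14, 0 and 0.419 in TSa2i-C57 and 8.69, 5.96 and 2.32 in 2i-14 (-1.92 ± 0.35, adjusted p = 0.00931, limma), and neither Mage call held without the fibroblast-rich libraries. Crystallin, Pramel, Rhox2 and Magea genes all have close paralogues, so values of single members are uncertain.

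The list of germline genes, which also holds Magea5, went both ways. Of 51 listed, 36 were tested, 6 rose and 5 fell, with a median of 0.03. Stra8, which is induced at the start of meiosis, was at 0.528, 0.0949 and 1.05 FPKM in TSa2i-14, 1.80 and 0.991 in TSa2i-C57 and 6.32, 5.13 and 11.3 in 2i-14 (-2.18 ± 0.31, adjusted p = 0.00255, limma). Dazl, an RNA-binding protein of germ cells, was at 2.5, 3.38 and 2.40 FPKM in TSa2i-14, 4.95 and 1.69 in TSa2i-C57 and 8.87, 13.7 and 9.17 in 2i-14 (-1.57 ± 0.26, adjusted p = 0.0058, limma). Piwil2, a partner of piRNAs, was at 1.94 to 4.24 FPKM against 0.430 to 0.701 (1.25 ± 0.21, adjusted p = 0.00655, limma). Dazl went from 13.7 to 2.09 and from 13.4 to 2.31 FPKM in the DMR-deleted lines, whereas Stra8 went from 3.48 to 4.09 and from 15.2 to 2.64. Without the 3 fibroblast-rich libraries 1 of 31 germline genes was called.

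**Figure D5:**
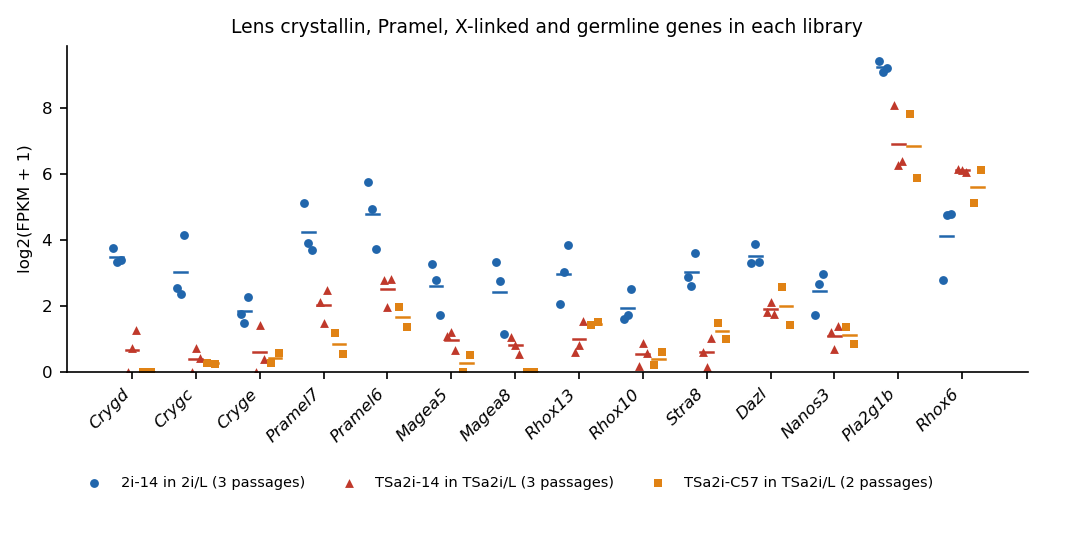
log2(FPKM + 1) of 14 crystallin, Pramel, Mage, Rhox and germline genes in the 8 libraries, 1 point per library (blue circles 2i-14, red triangles TSa2i-14, orange squares TSa2i-C57) with bars at the mean of each line. Crygd is at 0 to 1.41 FPKM in the TSa2i/L libraries and 9.07 to 12.4 in 2i-14, and Rhox6 is the gene with the opposite direction.

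Single genes outside these families also fell. The list of fatty acid synthesis and lipid handling had 1 of 30 tested genes higher and 1 lower, with a median of 0.01. Acaa2, a thiolase of mitochondrial fatty acid oxidation, was at 20.7, 16.1 and 19.8 FPKM in TSa2i-14, 22.9 and 23.9 in TSa2i-C57 and 86.5, 103 and 119 in 2i-14 (-2.26 ± 0.18, adjusted p = 0.000154, limma). It went from 94.0 to 13.3 and from 91.0 to 27.5 FPKM after the switch of the DMR-deleted lines. Cidea, a lipid droplet protein, was at 1.35 to 3.79 FPKM against 9.48 to 40.2 (-2.53 ± 0.38, adjusted p = 0.00357, limma). Stk33, a protein kinase, was at 0.697, 1.27 and 1.54 FPKM in TSa2i-14, 0.199 and 0.0565 in TSa2i-C57 and 8.66, 7.88 and 9.52 in 2i-14 (-2.55 ± 0.29, adjusted p = 0.000679, limma).

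Lists of the inhibited pathways had medians near that of all genes, though their called shares were above the 7.57% of all tested genes. Of 22 tested MEK-ERK targets and regulators 2 rose and 1 fell (13.6% called), with a median of 0.06. Spry4, a feedback inhibitor of the pathway, was at 1.26, 0.414 and 1.25 FPKM in TSa2i-14, 0.472 and 1.51 in TSa2i-C57 and 0.0923, 0.134 and 0.0218 in 2i-14 (0.83 ± 0.22, adjusted p = 0.0415, limma), a call lost under median centring and quantile normalization and without any 1 of the controls. Etv4, an ETS factor induced by ERK, was at 1.16 to 2.13 FPKM against 0.503 to 0.818 (0.64 ± 0.17, adjusted p = 0.0486, limma). Both Spry4 and Etv4 were below 1 FPKM in every control and passed the filter through TSa2i/L libraries alone. The called share of the list therefore rests in part on genes admitted that way. Epha4, an ephrin receptor, was at 0.350 to 1.13 FPKM against 2.54 to 4.59 (-1.41 ± 0.21, adjusted p = 0.00295, limma). The phosphatase Dusp6, a common readout of ERK, was at 9.05, 2.70 and 6.79 FPKM in TSa2i-14, 3.96 and 9.19 in TSa2i-C57 and 2.86, 2.21 and 1.53 in 2i-14, so that TSa2i-14 p47 lay among the controls (1.11 ± 0.33, adjusted p = 0.0686, limma). Etv5 was at 20.2 to 26.1 FPKM against 21.9 to 41.2 (-0.48, adjusted p = 0.205, limma). No member of the list was called without the fibroblast-rich libraries.

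The 14 tested Src family kinases and associated genes had a list median of 0.10, which was -0.01 after median centring. Of these, 2 were called, both higher (14.3%). Fyn, a broadly expressed kinase of the family, was at 2.35, 4.00 and 4.33 FPKM in TSa2i-14, 2.27 and 3.37 in TSa2i-C57 and 1.13, 1.26 and 1.19 in 2i-14 (0.93 ± 0.21, adjusted p = 0.0218, limma). Among 14 tested Wnt pathway genes 2 fell and none rose (14.3% called). Tcf7l1 was at 3.01 to 5.47 FPKM against 6.74 to 9.20 (-0.86 ± 0.20, adjusted p = 0.0287, limma), and Notum, a secreted Wnt inhibitor, was at 0.641 to 2.03 against 2.03 to 6.77 (-1.39 ± 0.32, adjusted p = 0.0251, limma). Of 20 Nodal and BMP pathway genes only Msx2 was called (-1.11), and none of 17 LIF-STAT3 genes was (median 0.29). Integrin genes (18 tested, none called, median -0.08) and SRF and YAP targets (31 tested, 1 higher and 1 lower, median -0.19) completed the pathways next to Src.

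Naive pluripotency genes overlapped as a list, with means of 5.54 to 5.84 in TSa2i/L and 5.64 to 5.89 in 2i-14. Of 23 tested, 2 fell and none rose (median -0.07). Prdm14, a repressor that keeps stem cells naive and lowers DNA methylation, was at 16.1, 9.97 and 10.2 FPKM in TSa2i-14, 7.74 and 13.2 in TSa2i-C57 and 24.5, 20.6 and 23.5 in 2i-14 (-0.97 ± 0.22, adjusted p = 0.0238, limma). It went from 39.5 to 11.3 and from 23.4 to 9.43 FPKM after the switch of the DMR-deleted lines. Mylpf, a myosin light chain gene in the same list, was at 376 to 522 FPKM against 632 to 1146 (-0.95 ± 0.19, adjusted p = 0.0127, limma), but higher in the switched library of either DMR-deleted line. Among 18 general pluripotency genes Sall4 (29.0 to 42.6 against 53.9 to 76.5 FPKM) and Dppa2 (9.34 to 18.8 against 23.3 to 53.2 FPKM) fell, by 0.93 (adjusted p = 0.0148, limma) and 1.41 (adjusted p = 0.0166, limma). None of the calls in the Wnt, naive or general pluripotency lists held without the fibroblast-rich libraries.

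Of 22 tested genes of the DNA methylation machinery 2 rose and none fell, with a median of -0.05. That called share of 9.09% was near the 7.57% of all tested genes. The de novo methyltransferase Dnmt3a was at 1.203, 0.979 and 1.11 FPKM in TSa2i-14, 0.511 and 1.03 in TSa2i-C57 and 2.61, 2.03 and 1.05 in 2i-14 (-0.53 ± 0.21, adjusted p = 0.16, limma). Dnmt3b (-0.36, adjusted p = 0.497), the maintenance enzyme Dnmt1 (-0.20, adjusted p = 0.604) and the imprint keeper Zfp57 (0.57, adjusted p = 0.139) did not pass limma either. The called pair was Apobec1, an RNA and DNA cytidine deaminase, and Gadd45a, a stress gene linked to demethylation. Apobec1 was at 7.49, 9.01 and 7.69 FPKM in TSa2i-14, 12.9 and 7.80 in TSa2i-C57 and 1.18, 1.47 and 1.44 in 2i-14 (2.06 ± 0.20, adjusted p = 0.000398, limma). Gadd45a was at 34.6 to 47.5 FPKM against 12.5 to 15.5 (1.40 ± 0.17, adjusted p = 0.00088, limma), and each DMR-deleted line had more of both once switched. None of 24 tested H3K9 methylation genes (median -0.11) or 27 Polycomb genes (median -0.15) was called.

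Among imprinted genes, 2 of 15 tested maternally expressed genes rose and 1 fell (median 0.38). Phlda2 and Slc22a18 lie side by side on chromosome 7. Phlda2, which restrains placental growth, was at 52.8, 75.3 and 53.6 FPKM in TSa2i-14, 81.1 and 72.2 in TSa2i-C57 and 26.3, 17.2 and 12.0 in 2i-14 (1.85 ± 0.24, adjusted p = 0.00173, limma). Slc22a18 was at 3.80, 5.73 and 4.96 FPKM in TSa2i-14, 6.03 and 8.74 in TSa2i-C57 and 0.495, 0.475 and 0.154 in 2i-14 (2.29 ± 0.23, adjusted p = 0.000398, limma). Both stayed called without the fibroblast-rich libraries, and Phlda2 went from 6.77 to 96.4 and from 11.7 to 86.9 FPKM after the switch of the DMR-deleted lines. Meg3, the maternal RNA of the IG-DMR region, was lower (-1.29, adjusted p = 0.0437, limma), a call lost without the fibroblast-rich libraries. Of 17 paternally expressed genes Sgce rose (1.73, adjusted p = 0.033, limma) and Peg12 fell by 0.97 (adjusted p = 0.0342, limma).

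Core metabolism and protein synthesis showed few changes. None of 74 tested cytosolic ribosomal protein genes (median 0.09), 31 proteasome genes (median -0.18) or 33 cholesterol synthesis genes (median -0.02) was called. Of 74 respiratory chain genes Uqcrh (-0.52 ± 0.10, adjusted p = 0.0102, limma) and Atp5g1 (-0.46 ± 0.12, adjusted p = 0.0362, limma) fell, both with narrow groups at high FPKM. Of 34 glycolysis genes Pdk1 rose by 1.14 (adjusted p = 0.0202, limma) and Pdk2 by 0.67 (adjusted p = 0.0217, limma), kinases that hold pyruvate back from the citric acid cycle. The glycolysis list had a median of -0.09, whereas 24 of 34 members were lower in both switched DMR-deleted libraries (medians -0.34 and -0.98). Of 22 tested chaperone and unfolded protein genes 2 rose and 2 fell (18.2% called, above the 7.57% of all tested genes), with a median of 0.02. Herpud1, of the endoplasmic reticulum, was at 31.2 to 56.9 FPKM against 12.5 to 16.6 (1.42 ± 0.23, adjusted p = 0.00485, limma). The cytosolic chaperone Hsph1 was at 11.6 to 36.6 FPKM against 61.4 to 67.7 (-1.53 ± 0.29, adjusted p = 0.0108, limma).

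All tested genes give the scale for the values of the DMR-deleted lines. Of 10387 genes 24.9% were higher and 43.4% lower after the switch in both lines. Of the 594 genes called higher 389 (65.5%) were higher in both, and of the 192 called lower 164 (85.4%) were lower in both. Since those related lines were switched rather than derived in SF/a2i/L, and their before and after states were single libraries, these counts are a description.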

How the data were processed

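Poly(A) RNA of sorted haploid cells was amplified with a single-cell full-length kit and sequenced. The deposited values were FPKM per gene, made by the authors with TopHat and Cufflinks on mm9 (the submitters' notes name TopHat2 2.0.11, Bowtie2 2.2.2 and Cufflinks 2.2.1). Count tests do not apply to FPKM. Values of a symbol on several rows were summed.

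Members, gene lists and families were chosen with earlier results of these data known. Genes with FPKM of at least 1 in at least 3 of the 8 libraries were tested on log2(FPKM + 1) (pseudocount 1) by limma 3.58.1 (R 4.3.3) allowing the variance to follow intensity, and Benjamini-Hochberg adjustment, all lines of a group together. Implied depth was 12700000 to 19200000 fragments. Amplification weakens the tie between fragments and molecules. The 2i-14 library taken after a switch of medium was not compared, because it shares its line with the control.

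Genes were named by rule: the 20 largest called rises and 20 largest falls with groups apart, up to 6 called genes per list or family, at most 2 in lists without a call, preset imprinting, methylation and ERK genes, and markers. Exceptions are stated. Alternatives covered pseudocount, filter, scaling, trend, line, added controls, fibroblast RNA and left-out libraries. The fit was tested on simulated data. Gene coordinates are mm9 (GENCODE), and promoters are RefSeq on GRCm38.p6. Python 3.11.15 was used for summaries. Some genes are not reported here.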

Additional observations from a re-analysis of the deposited data

Results flagged for a closer look

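In 9 of 177 named genes examined, 1 of the 5 TSa2i/L libraries stood apart from its group. Its gap to its neighbour was above 0.71 of the range of the group on the log2(FPKM + 1) scale. About 8.85 are reached by chance alone. Rhox6 was lowest in TSa2i-C57 p9 at 34.0 FPKM (ratio 0.934). Cldn4 was highest in TSa2i-C57 p9 at 123 FPKM (0.744), and Dnmt3a was lowest there at 0.511 FPKM (0.715). Asns (1483 FPKM, 0.833) and Lypd2 (3.75 FPKM, 0.74) stood apart in TSa2i-14 p22. Uhrf1 did so in TSa2i-14 p47 (46.5 FPKM, 0.717) and H2-Bl in TSa2i-14 p54 (5.04 FPKM, 0.779). Msx2 (1.24 FPKM, 0.838) and Trim43a (0.678 FPKM, 0.833) did so in TSa2i-C57 p58. The TSa2i-14 and TSa2i-C57 lines differed from each other for 2 genes at an adjusted p under 0.05 in limma (321 at an unadjusted p under 0.05), and for 0 of the named genes.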

How the results depend on the processing

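Counts of called genes moved with the settings as follows (called, higher, lower). Without a filter on low FPKM they were 374, 271 and 103, and at a mean FPKM of at least 5 they were 458, 350 and 108. After median centring 359 were higher and 280 lower, after quantile normalization 365 and 290. With a within-line correlation they were 2677, 1895 and 782. Line is nested in group and the control is a single line, so that fit is no safeguard against line effects. With TSa2i-14 alone the counts were 468, 346 and 122, with TSa2i-C57 alone 109, 78 and 31, and with both DMR-deleted 2i/L libraries as added controls 1316, 929 and 387. Without the 3 fibroblast-rich libraries they were 137, 101 and 36, and at a change of at least 1 they were 404, 307 and 97. Leaving out 1 library gave 299 to 846 called, 225 to 618 higher and 74 to 228 lower, the lowest without 2i-14 p39 (299) and then without 2i-14 p50 (431), TSa2i-14 p47 (440) or 2i-14 p18 (504). The causes were not tested. No named called gene changed sign under any alternative, though without the fibroblast-rich libraries 48 of 143 were still called. Genes near 0 changed sign. Asns was 0.00090336 with TSa2i-14 alone, and ran from -0.173 to 0.0677 (without 2i-14 p50) in leave-one-out fits. Dnmt3l was -0.11 under median centring, -0.0588 under quantile normalization, -0.0305 at equal summed FPKM, -0.65 with TSa2i-C57 alone, -0.23 with added controls, -0.0793 without fibroblast-rich libraries and -0.201 to 0.405 in leave-one-out fits. Uhrf1 was -0.0835, -0.0549 and -0.00407 under the same scalings, -0.16 with TSa2i-C57 alone and -0.217 to 0.226 in leave-one-out fits. No paired analysis was possible because the groups are different lines and their replicate numbers only name libraries. Transcripts near 0.2 FPKM lie at the limit of 3 fragments per kb.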
